A study of Mus musculus with 14 samples.

Results

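Cathepsins and legumain are proteases of the lysosome, and cystatin C is a secreted inhibitor of the cysteine proteases among them. The 10 genes described here are *Ctsb*, *Ctsc*, *Ctsd*, *Ctsh*, *Ctsk*, *Ctsl*, *Ctss*, *Ctsz*, *Lgmn* and *Cst3*, taken by symbol from a table of 46904 genes measured by RNA-seq in mouse brain hemispheres after stroke. All 10 were found, and all 10 were among the 46102 genes above 0 in at least 2 libraries. In the ischemic hemisphere 8 of the proteases were more abundant than in the opposite hemisphere when both genotypes were averaged, by 0.44 (*Ctsb*) to 1.29 (*Ctsc*) on the log2 scale. The osteoclast protease gene *Ctsk* and the inhibitor gene *Cst3* did not pass the same test.

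Lysosomes degrade proteins delivered by endocytosis, phagocytosis and autophagy, and cathepsins are the peptidases that carry this out at acidic pH. Most of them are cysteine proteases, cathepsin D is an aspartic protease, and several are made as zymogens that other lysosomal proteases cut into the active form. In brain, microglia and infiltrating macrophages are known for high cathepsin expression, while cystatins, the inhibitors of cysteine cathepsins, are secreted (cystatin C) or act inside cells.

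The samples came from wild-type mice (Cort+/+) and mice lacking cortistatin (Cort-/-), a neuropeptide, the latter kept on the C57BL/6J strain. At an age of 12 weeks the middle cerebral artery was occluded for 20 min with a filament and then reperfused (MCAO), and after 48 h the ischemic (MCAO) and the contralateral (CL) hemispheres were collected, so that every CL sample comes from an operated mouse. For Cort+/+ mice 3 libraries were from CL and 3 from MCAO hemispheres, whereas Cort-/- mice had 3 and 5, all made from polyadenylated RNA and described as independent biological replicates. The Cort+/+ MCAO libraries bear the replicate numbers 2, 3 and 4, whereas the study's methods name 5 MCAO replicates. Its supplement states that comparisons with large variability kept only replicates that grouped clearly, without naming those left out. The labels do not say which CL and MCAO samples came from the same mouse, and the knockout is constitutive, so that all cell types lack the gene.

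Recovered reads on genes numbered 25991301 to 43035256 per library (median 36029108), with the lowest total in a Cort-/- MCAO library. *Cort* had 64 to 139 reads in the 6 Cort+/+ libraries and 0 to 4 reads in the 8 Cort-/- libraries, in accordance with their genotype labels. Markers of neurons, astrocytes, oligodendrocytes and microglia were all present in every group, with summed levels of 1325 to 1911 RPKM for 5 neuronal and 790.9 to 1049 RPKM for 5 oligodendrocyte markers. RPKM scales reads by gene length and by library size, so levels can be compared between genes. The Cort+/+ MCAO library with replicate number 4 had the lowest levels of the 8 MCAO libraries for the 8 genes that rose, and the Cort+/+ responses of the members are given with and without it.

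Among the genes, *Ctsd* encodes the aspartic protease cathepsin D and lies on the minus strand of chromosome 7 (chr7:141929646-141941775, GRCm39). *Ctsb* (chr14:63358384-63383372) encodes cathepsin B, which cuts both inside proteins and from their ends, and *Ctsl* (chr13:64507151-64518704) encodes the endopeptidase cathepsin L. *Ctss* (chr3:95433963-95463717) encodes cathepsin S, which degrades the invariant chain of MHC class II in antigen-presenting cells. *Ctsk* (chr3:95406178-95416732), whose product dissolves bone collagen, ends 17231 bases before *Ctss* on the same strand. *Ctsc* (chr7:87927092-87960096) encodes the dipeptidyl peptidase that activates granule serine proteases, and *Ctsh* (chr9:89936205-89958148) and *Ctsz* (chr2:174267304-174280832) encode an aminopeptidase and a carboxypeptidase. *Lgmn* (chr12:102359122-102414682) encodes legumain, an asparagine-specific endopeptidase that also matures other cathepsins, and *Cst3* (chr2:148713635-148717887) encodes cystatin C. All positions are those of whole protein-coding genes in GENCODE M39.

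Averaged over the 14 libraries, *Cst3* stood at 678 RPKM, *Ctsd* at 271, *Ctsb* at 148, *Lgmn* at 85.9, *Ctss* at 55.2 and *Ctsz* at 42.9 RPKM. Below these were *Ctsl* at 16.0, *Ctsh* at 9.19, *Ctsc* at 3.23 and *Ctsk* at 1.84 RPKM. In the CL libraries of each genotype the ranges of neighbours in this order did not overlap, except for *Ctsc* and *Ctsk*, which did. In the MCAO libraries *Ctsc* lay above *Ctsk* in every library, whereas *Lgmn* overlapped with *Ctss* and *Ctss* with *Ctsz* in both genotypes, and *Ctsl* with *Ctsh* in Cort-/- mice. At least 68 reads stood behind each value of *Ctsk* (exact Poisson 95% interval of 68 reads, 52.8 to 86.2) and at least 218 behind each value of *Ctsc* (190.0 to 249). These intervals cover counting error only.

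Sequences upstream of the transcription start were searched for motifs because 8 of the members moved together, and they are shown for 3 genes of that group and for the 2 that did not pass. They come from RefSeq, where 8 of the members had an entry (with 2 starts for *Lgmn*) and *Ctsb* and *Ctsh* had none. They cover the 250 bases before the start in GRCm38.p6. Capitals mark every match to the E-box CACGTG, to its extended form TCACGTGA bound by MiT/TFE factors, which contains the E-box, or to GAGGAAGT, a sequence of the kind bound by PU.1, each sought on both strands. The promoters lie at chr7:142387828-142388077 (minus strand, Ctsd), chr7:88277835-88278084 (plus strand, Ctsc), chr13:64370521-64370770 (minus strand, Ctsl), chr3:95498960-95499209 (plus strand, Ctsk) and chr2:148875513-148875762 (minus strand, Cst3).
Ctsd: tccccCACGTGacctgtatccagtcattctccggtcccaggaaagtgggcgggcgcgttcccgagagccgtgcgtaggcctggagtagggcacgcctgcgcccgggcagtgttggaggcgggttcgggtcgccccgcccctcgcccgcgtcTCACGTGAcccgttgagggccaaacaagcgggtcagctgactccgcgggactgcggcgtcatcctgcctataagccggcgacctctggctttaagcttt
Ctsc: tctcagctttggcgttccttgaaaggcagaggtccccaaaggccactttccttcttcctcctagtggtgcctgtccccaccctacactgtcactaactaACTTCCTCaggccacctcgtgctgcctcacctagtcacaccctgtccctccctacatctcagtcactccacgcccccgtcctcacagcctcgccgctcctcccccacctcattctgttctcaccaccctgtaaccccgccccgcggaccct
Ctsl: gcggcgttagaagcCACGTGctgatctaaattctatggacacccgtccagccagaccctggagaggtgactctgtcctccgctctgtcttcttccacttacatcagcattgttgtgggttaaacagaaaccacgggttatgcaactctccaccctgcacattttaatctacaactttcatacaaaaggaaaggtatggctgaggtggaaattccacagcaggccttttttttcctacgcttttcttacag
Ctsk: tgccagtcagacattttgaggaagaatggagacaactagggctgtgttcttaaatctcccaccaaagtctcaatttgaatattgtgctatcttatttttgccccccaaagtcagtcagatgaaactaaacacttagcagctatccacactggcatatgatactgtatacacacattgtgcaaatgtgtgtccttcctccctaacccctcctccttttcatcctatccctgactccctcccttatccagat
Cst3: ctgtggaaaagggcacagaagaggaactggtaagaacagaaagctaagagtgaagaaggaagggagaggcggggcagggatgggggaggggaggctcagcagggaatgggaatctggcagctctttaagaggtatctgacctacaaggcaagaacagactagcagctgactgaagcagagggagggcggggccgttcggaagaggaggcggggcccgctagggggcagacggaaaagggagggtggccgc

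The *Ctsd* promoter held an E-box 245 bases and an extended E-box 99 bases before the start, and that of *Ctsl* an E-box 236 bases before it. The second start of *Lgmn* had an E-box 49 bases upstream. The sequence of the PU.1 type was found on the minus strand, 151 bases before the start of *Ctsc* and across the start of *Ctss*. Of 32851 promoter windows of 300 bases in the RefSeq table, 7.15% held the E-box, 0.974% the extended form and 3.2% the PU.1-type sequence. No match was found within the windows of *Ctsk*, *Cst3* and *Ctsz* or of the other start of *Lgmn*. The rising genes shown above all hold a match, while *Ctsz*, which also rose, holds none. The sequences shown therefore do not compare the genes that rose with those that did not. These matches describe the letters of the windows and were not tested for binding.

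Next, the change from CL to MCAO hemispheres was examined in each genotype. Averaged over genotypes, the 3 proteases with the largest change were *Ctsc*, *Ctsz* and *Ctsd*. For *Ctsd*, Cort+/+ CL libraries were at 172, 153 and 144 RPKM and Cort+/+ MCAO libraries at 369, 385 and 219 RPKM. Cort-/- CL libraries were at 158, 182 and 158 RPKM, and Cort-/- MCAO libraries at 464, 343, 282, 389 and 374 RPKM. Every MCAO library thus lay above every CL library in both genotypes, and Cort+/+ MCAO replicate 4 was the lowest of the MCAO libraries. In Cort-/- mice the group means differed 2.23-fold (log2 fold change 1.14, standard error 0.18, limma adjusted p = 0.0110), and in Cort+/+ mice 2.08-fold (1.02, standard error 0.20, adjusted p = 0.148).

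*Ctsd* shares exon sequence with *Gm49369*, a protein-coding gene model on the same strand (chr7:141924833-141936404). The shared 808 bases make up 29.2% of the *Ctsd* exons and 79.0% of those of *Gm49369*. Over the 14 libraries *Gm49369* was the gene most like *Ctsd* (Pearson r = 0.999), and its level was 1.32 to 1.35 times that of *Ctsd* in the 4 group means. How reads on the shared exons were assigned is not stated, so the level of *Ctsd* is uncertain. The log2 fold change in Cort-/- mice was 1.16 for *Gm49369* beside 1.14 for *Ctsd*. *Ctsb* and *Ctsz* share 15.4% and 29.2% of their exon bases with genes on the opposite strand, *Fdft1* and *Nelfcd*, and the strand setting of the counting is not stated. All exon bases of the pseudogene *Gm49230* and of the antisense RNA *Gm47123* lie within *Ctsl* exons.

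*Ctsz* was at 26.2, 20.6 and 20.2 RPKM in Cort+/+ CL and at 54.9, 68.1 and 33.7 RPKM in Cort+/+ MCAO libraries. Its levels in Cort-/- mice were 21.7, 29.1 and 22.2 RPKM in CL and 81.4, 51.8, 38.7, 68.3 and 63.1 RPKM in MCAO libraries. Again no MCAO library reached down to the CL range. The means differed 2.34-fold in Cort+/+ mice (log2 fold change 1.17, standard error 0.27, limma adjusted p = 0.212) and 2.49-fold in Cort-/- mice (1.28, standard error 0.24, adjusted p = 0.0224).

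*Ctsc*, the least abundant of the genes that rose, was at 2.06, 1.50 and 1.23 RPKM in Cort+/+ CL and at 3.84, 5.37 and 2.07 RPKM in Cort+/+ MCAO libraries. Cort-/- libraries had 1.64, 2.07 and 1.26 RPKM in CL and 6.63, 3.91, 2.87, 5.96 and 4.81 RPKM in MCAO libraries. In Cort+/+ mice the lowest MCAO library, replicate 4, lay barely above the highest CL library, and the other MCAO libraries stood clear of the CL range. The means differed 2.35-fold in Cort+/+ and 2.92-fold in Cort-/- mice (for the latter log2 fold change 1.46, standard error 0.31, limma adjusted p = 0.0359).

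*Ctss* followed at an intermediate size of change, with 46.6, 36.1 and 35.7 RPKM in Cort+/+ CL and 62.7, 76.9 and 43.8 RPKM in Cort+/+ MCAO libraries. Cort-/- libraries were at 35.1, 41.9 and 38.0 RPKM in CL and at 89.5, 63.9, 55.1, 78.9 and 68.6 RPKM in MCAO. Only Cort+/+ MCAO replicate 4 fell within a CL range. The log2 fold change of *Ctss* was 0.60 (standard error 0.20, limma adjusted p = 0.394) in Cort+/+ and 0.88 (standard error 0.18, adjusted p = 0.0296) in Cort-/- mice.

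*Lgmn* was at 54.3 to 65.2 RPKM in Cort+/+ CL and at 95.1, 119 and 74.8 RPKM in Cort+/+ MCAO libraries. Cort-/- libraries were at 53.7 to 63.3 RPKM in CL and at 138, 102, 83.1, 132 and 109 RPKM in MCAO libraries, a 1.94-fold difference of means (log2 fold change 0.94, standard error 0.17, limma adjusted p = 0.0173). *Ctsh* ranged over 5.005 to 6.95 RPKM in Cort+/+ CL and 6.95 to 12.9 RPKM in Cort+/+ MCAO libraries, and over 4.91 to 6.10 and 9.48 to 17.3 RPKM in Cort-/- mice. For *Ctsl* and *Ctsb* the Cort-/- MCAO ranges of 16.1 to 26.6 and 144 to 199.9 RPKM also lay above the CL ranges of 10.3 to 12.5 and 115 to 126 RPKM. In the limma model *Ctsh*, *Ctsl* and *Ctsb* had Cort-/- log2 fold changes of 1.20, 0.82 and 0.51 (standard errors 0.22, 0.17 and 0.12, adjusted p = 0.0197, 0.0328 and 0.0455). For *Ctsh* and *Ctsb* 1 Cort+/+ MCAO library, replicate 4, lay within the CL range. *Ctsb*, the most abundant cysteine protease, thus had the smallest change among the genes that rose, 1.44-fold in Cort-/- and 1.30-fold in Cort+/+ mice.

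**Figure D1:**
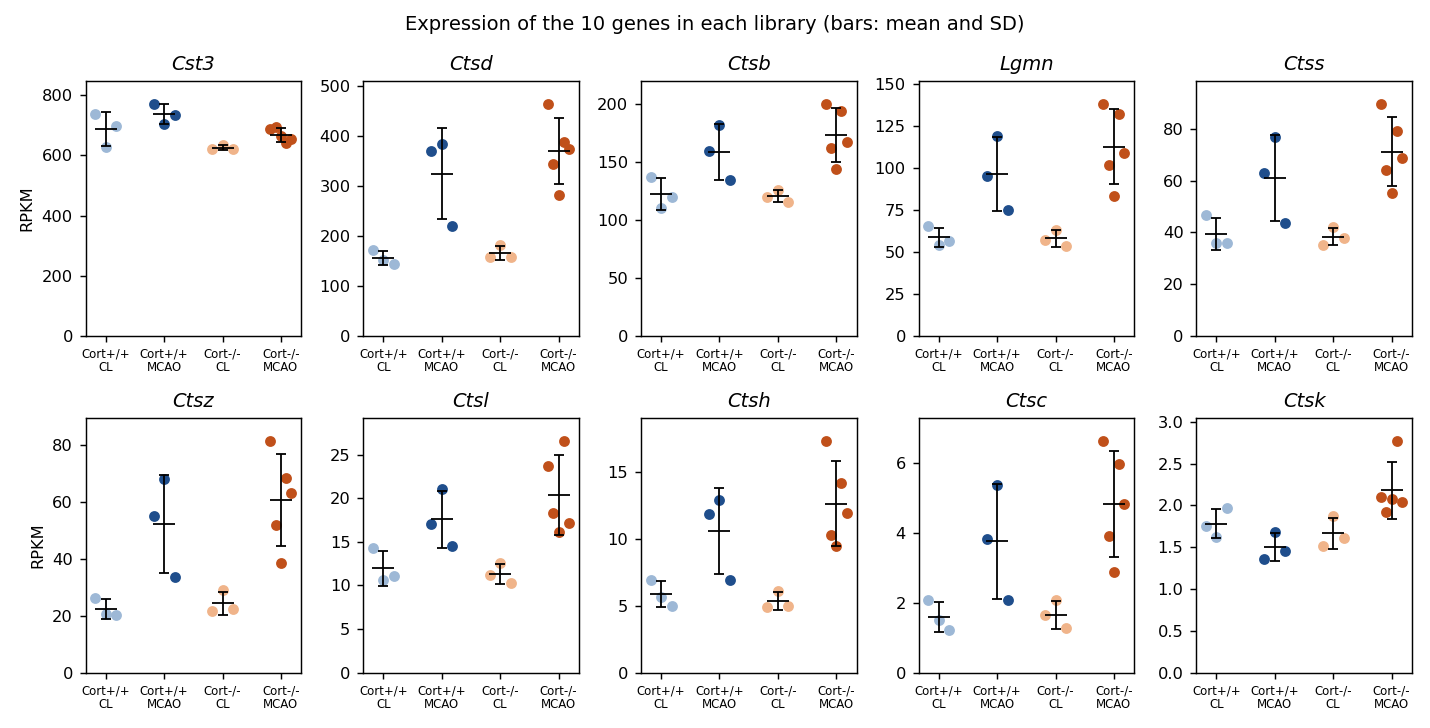
RPKM (vertical axes, from 0) of each gene in the 14 libraries, by genotype and hemisphere, with 1 point per library and bars for the mean and SD of each group. In Cort-/- mice all 5 MCAO points lie above the 3 CL points for every gene, while in Cort+/+ mice *Ctsk* is at 1.36 to 1.68 RPKM in MCAO and 1.63 to 1.97 RPKM in CL libraries.

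In the limma model, 8 of the 10 genes rose in Cort-/- mice (adjusted p from 0.0110 for *Ctsd* to 0.0455 for *Ctsb*) and none was lower, against 1.34% of all 46102 genes tested that rose and 0.382% that were lower. Among 15063 genes averaging 1 RPKM or more, to which all members belong, 3.05% rose. None of the 10 passed in Cort+/+ mice, where 0.00868% of all genes tested rose. At an unadjusted p under 0.05, 8 of the 10 were higher in Cort+/+ mice, beside 2248 of all 46102 genes tested. There limma voom on the recovered reads called *Ctsd* alone (adjusted p = 0.0447), beside 0.106% of all genes that rose in that fit. The members had a median log2 fold change of 0.91 in Cort-/- mice and 0.65 in Cort+/+ mice, beside -0.03 and -0.02 over the 15063 genes. In the average of both genotypes 8 rose (adjusted p from 0.00145 for *Ctsd* to 0.0144 for *Ctsb*), against 2.52% of all genes that rose and 0.902% that fell. Among the 15063 genes averaging 1 RPKM or more, 5.56% rose and 2.50% fell in the average.

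The calls in Cort-/- mice depended on single libraries. Without Cort-/- CL replicate 1 or 3 none of the members passed (lowest adjusted p = 0.0598 and 0.0567), without Cort-/- CL replicate 2 or MCAO replicate 5 there were 4, and without Cort-/- MCAO replicate 1 or 4 there were 3. Calls over all genes fell in the same fits. With all libraries 616 of 46102 genes rose in Cort-/- mice. In these fits of 45428 to 45742 genes, 82 and 100, then 244 and 267, then 219 and 249 rose, in the order given. In the average of both genotypes all 8 remained when any 1 of the 14 libraries was left out, in fits where 753 to 1436 of all genes rose. Without Cort+/+ MCAO replicate 4, *Ctsd* and *Ctsz* passed in Cort+/+ mice (lowest adjusted p = 0.00569), in a fit where 154 of 45669 genes rose (0.337%), against 4 with all libraries. The Cort+/+ log2 fold changes without it were 1.48 for *Ctsc*, 1.46 for *Ctsz*, 1.28 for *Ctsd*, 1.08 for *Ctsh*, 0.86 for *Lgmn*, 0.83 for *Ctss*, 0.67 for *Ctsl* and 0.48 for *Ctsb*. *Ctsk* and *Cst3* were then at -0.22 and 0.10.

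**Figure D2:**
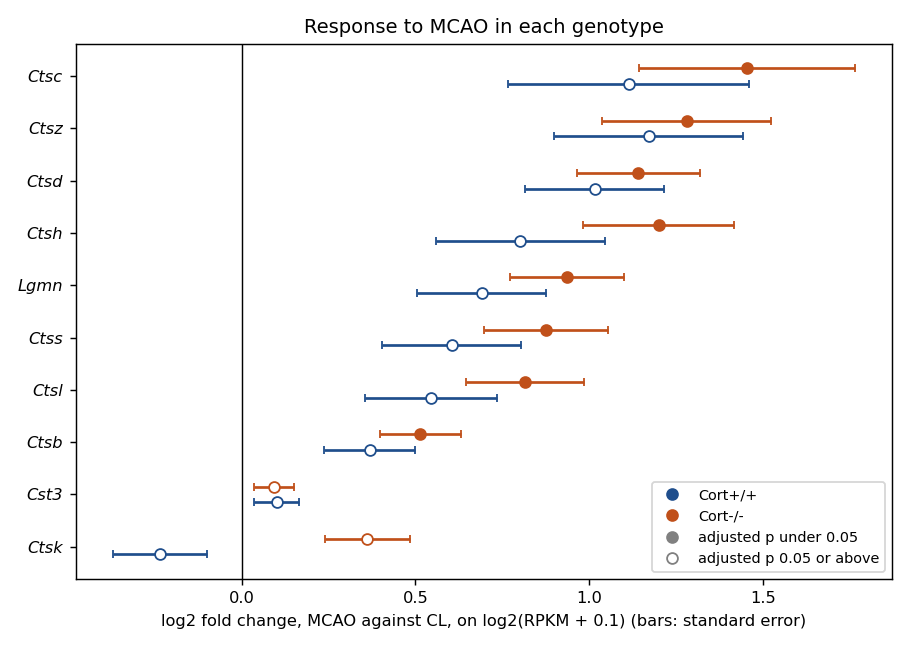
Log2 fold change from CL to MCAO on the scale of log2(RPKM + 0.1) for each gene (horizontal axis), with its standard error, in Cort+/+ (blue) and Cort-/- (orange) mice. Filled points pass an adjusted p of 0.05: 8 Cort-/- points do and none of the Cort+/+ points, while the estimates of both genotypes overlap within their errors for all genes but *Ctsk*.

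*Ctsk* had another pattern than its neighbour *Ctss*. It was at 1.75, 1.63 and 1.97 RPKM in Cort+/+ CL and at 1.36, 1.68 and 1.45 RPKM in Cort+/+ MCAO libraries. The Cort-/- values were 1.52, 1.87 and 1.61 RPKM in CL and 2.10, 1.92, 2.08, 2.77 and 2.04 RPKM in MCAO libraries. The ranges overlapped in Cort+/+ mice, with 2 of 3 MCAO libraries below every CL library, and did not overlap in Cort-/- mice, where MCAO was higher. For Cort+/+ mice the log2 fold change was -0.23 (standard error 0.14, limma adjusted p = 0.770), and for Cort-/- mice 0.36 (standard error 0.12, adjusted p = 0.187). As a ratio of levels, *Ctss* stood at 22.3 ± 4.24 times *Ctsk* in Cort+/+ CL and 40.6 ± 9.09 times in Cort+/+ MCAO libraries (SD, n = 3 each). The ratio was 23.0 ± 0.570 (SD, n = 3) in Cort-/- CL and 32.9 ± 6.25 (SD, n = 5) in Cort-/- MCAO libraries.

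*Cst3* was the most abundant of the genes and the one that varied least. Cort+/+ CL libraries were at 738, 628 and 696 RPKM and Cort+/+ MCAO libraries at 770.0, 704 and 734 RPKM. Cort-/- CL libraries were at 621, 635 and 621 RPKM, and Cort-/- MCAO libraries at 686, 695, 663, 641 and 654 RPKM. In Cort-/- mice MCAO lay just above CL without overlap, and in Cort+/+ mice the ranges overlapped. The means differed 1.07-fold in either genotype (log2 fold change 0.10 and 0.09, limma adjusted p = 0.826 and 0.557).

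The 9 proteases together summed to 420.2 ± 44.7 RPKM (SD, n = 3) in Cort+/+ CL and 726 ± 176 RPKM (SD, n = 3) in Cort+/+ MCAO libraries. Cort-/- libraries summed to 427 ± 32.8 RPKM (SD, n = 3) in the CL and to 828 ± 148 RPKM (SD, n = 5) in the MCAO hemisphere. Per unit of *Cst3* this was 0.611 ± 0.0380 in Cort+/+ CL and 0.990 ± 0.258 in Cort+/+ MCAO, and 0.682 ± 0.0438 in Cort-/- CL and 1.24 ± 0.223 in Cort-/- MCAO libraries. So protease transcripts, with *Ctsd* included, stood below *Cst3* in all 6 CL libraries and above it in 2 of 3 Cort+/+ and 4 of 5 Cort-/- MCAO libraries. The sum was dominated by *Ctsd* and *Ctsb*, whose shares moved apart. *Ctsd* made up 37.2% ± 1.41 in Cort+/+ CL and 44.4% ± 3.16 in Cort+/+ MCAO (SD, n = 3 each), and 38.8% ± 0.368 and 44.7% ± 1.23 in Cort-/- CL (n = 3) and MCAO libraries (n = 5). *Ctsb* made up 29.1% ± 1.12 and 22.2% ± 2.65 in Cort+/+, and 28.3% ± 1.06 and 21.1% ± 1.18 in Cort-/- mice. Without *Ctsd*, given its overlapping gene model, the sum per unit of *Cst3* was 0.384 and 0.548 in Cort+/+ CL and MCAO and 0.417 and 0.686 in Cort-/- CL and MCAO libraries. It then stayed below *Cst3* in every library, with a highest value of 0.693 in Cort+/+ and 0.815 in Cort-/- MCAO libraries. The crossing thus rests on *Ctsd*, an aspartic protease whose level is uncertain.

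**Figure D3:**
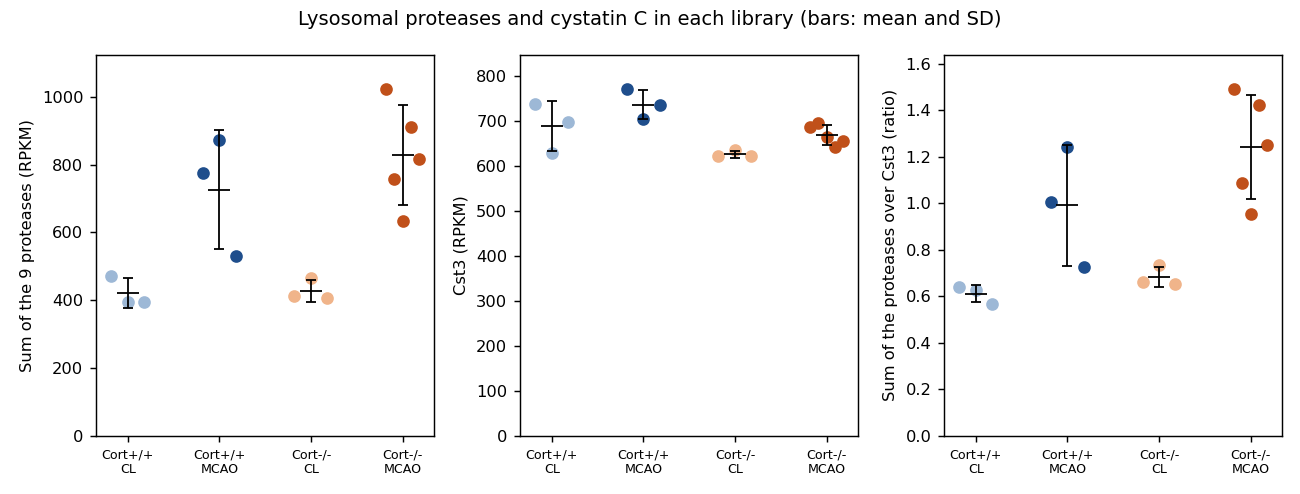
Sum of the 9 proteases in RPKM (left), *Cst3* in RPKM (middle) and their ratio (right), each from 0, with 1 point per library and bars for the mean and SD of each group. The ratio is 0.568 to 0.733 over the 6 CL libraries and 0.723 to 1.49 over the 8 MCAO libraries.

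The 8 genes that rose also varied together between MCAO libraries. Cort+/+ MCAO replicate 4 ranked last of the 8 MCAO libraries for 8 of 8 genes, Cort-/- MCAO replicate 3 ranked seventh and Cort+/+ MCAO replicate 3 in rank 3 for all of them, and Cort-/- MCAO replicate 1 ranked first for 7, with replicate 4 first for *Ctsl*. For *Ctsc*, for example, the difference from the CL mean of the same genotype ran from 0.39 in Cort+/+ MCAO replicate 4 to 1.96 in Cort-/- MCAO replicate 1 on the log2 scale. Once group means were removed, the 28 pairs among the 8 genes correlated with r of 0.748 to 0.982 (median 0.944) over the 14 libraries. The same libraries, depths and dissections underlie all of these values, so the correlation is a description. *Ctsk* correlated with the 8 at r of 0.229 to 0.631, and *Cst3* at 0.0418 to 0.193. For *Cst3* the 3 Cort+/+ MCAO libraries ranked above the other MCAO libraries, a description without a count over all genes.

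**Figure D4:**
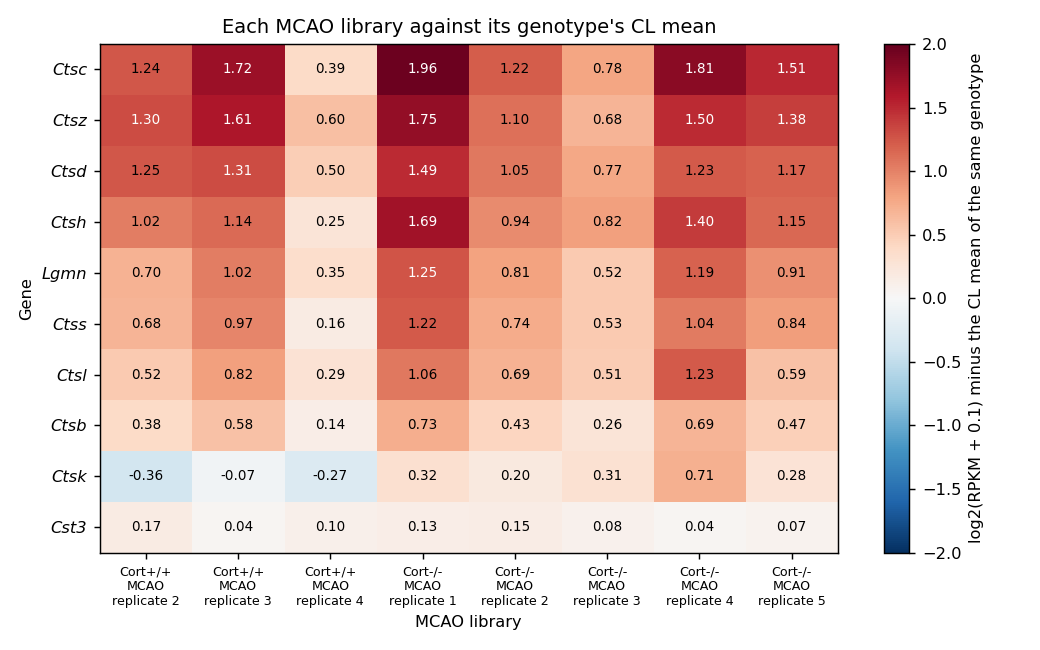
Difference of log2(RPKM + 0.1) of each of the 8 MCAO libraries (columns) from the CL mean of its genotype, for each gene (rows), on a colour scale from -2 to 2. Cort+/+ MCAO replicate 4 has the lowest values in the 8 rows from *Ctsc* to *Ctsb*, and only the *Ctsk* row holds values below 0.

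By likeness over the 14 libraries (Pearson r of log2 values, 15063 genes averaging 1 RPKM or more), *Spi1*, which encodes the myeloid transcription factor PU.1, was among the 3 genes most like *Ctsb*, *Ctsc*, *Ctss* and *Lgmn* (r of 0.993 to 0.995). *Ctss* was most like the complement genes *C1qb* and *C1qa* (0.995 and 0.994), and *Ctsb* was also close to *P2ry6* and *C1qb* (0.993 and 0.990). *Ctsc* was most like *Ccl6*, with *Itgb2* in rank 3 (0.995 and 0.992), and *Ctsd* after *Gm49369* was most like *Adgre1* and *Mpeg1* (0.994 each). *Ctsz* was most like *Hcls1*, *Grn* and *Gusb* (0.997, 0.995 and 0.993), and *Lgmn* after *Spi1* like *Cd63* (0.995). *Ctsh* was most like *Ctss*, *Bin2* and *Apobec1* (0.990, 0.990 and 0.989), and *Ctsl* like *Tgfbr2*, *Tgfb1* and *S100a11* (0.987, 0.986 and 0.983). Likeness was weaker for *Ctsk* (*Mybpc1*, *Anxa7* and *Rai14*, 0.868, 0.837 and 0.815) and *Cst3* (*Uqcrh*, *Cox4i1* and *Csrp1*, 0.893, 0.833 and 0.824). The difference between CL and MCAO enters these r values, and with group means removed the r of *Spi1* with *Ctsb* was 0.981.

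Microglial markers moved with these genes, as did 1 of 5 markers of monocytes and macrophages, while none of the 5 neutrophil markers passed. The 6 microglial markers (*P2ry12*, *Tmem119*, *Siglech*, *Cx3cr1*, *Csf1r* and *Aif1*) summed to 51.2 to 52.4 RPKM in Cort+/+ CL and 65.8 to 88.1 RPKM in Cort+/+ MCAO libraries, and to 51.9 to 56.2 and 70.0 to 102 RPKM in Cort-/- mice. All 6 had positive estimates, the median log2 fold change being 0.62 (Cort+/+) and 0.67 (Cort-/-), and 4 of 6 rose in the average of both genotypes, as did 1 of 5 markers of monocytes and macrophages (*Adgre1*). The sums of the latter were 1.95 to 2.94 and 3.60 to 7.77 RPKM in Cort+/+ CL and MCAO, and 2.66 to 3.42 and 5.57 to 11.4 RPKM in Cort-/- CL and MCAO libraries. *Adgre1* alone averaged 1.33 and 4.37 RPKM in Cort+/+ CL and MCAO, and 1.61 and 5.18 RPKM in Cort-/- CL and MCAO libraries. No marker of either type was at 0 in any library, with at least 124 reads for each microglial and at least 3 for each monocyte and macrophage marker. In bulk tissue more cells of a type and more RNA per cell cannot be told apart, and the part of these markers in the change of the members was not tested.

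Relative to the mean log2 level of the microglial markers, *Ctsd*, *Ctsz*, *Ctsc*, *Ctsh* and *Lgmn* were higher in all 5 Cort-/- MCAO libraries than in every Cort-/- CL library, by 0.50, 0.64, 0.86, 0.57 and 0.29 on average. In Cort+/+ mice no member was higher on this scale without overlap, the differences being 0.39 for *Ctsd*, 0.55 for *Ctsz* and 0.54 for *Ctsc* (2 of 3 MCAO libraries above every CL library each) and 0.19 for *Ctsh* and 0.07 for *Lgmn* (1 of 3 each). *Ctss* and *Ctsl* differed from CL by -0.02 and -0.07 in Cort+/+ and by 0.23 and 0.17 in Cort-/- mice, with overlap. *Cst3* was lower on this scale in every MCAO library of both genotypes, with differences of -0.52 (Cort+/+) and -0.55 (Cort-/-), and *Ctsk* in every Cort+/+ MCAO library (-0.87). *Ctsb*, at -0.26 and -0.13, overlapped. These differences are descriptions without a test, and how many of all genes separate in this way on this scale was not counted.

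Among other cells, 3 of 5 astrocyte markers rose in the average of both genotypes (*Gfap*, 1.84, *Aqp4*, 0.58, and *Aldh1l1*, 0.39 on the log2 scale), with sums of 232 to 349 RPKM over the CL and 327 to 573 RPKM over the MCAO libraries. Endothelial markers had 2 of 5 higher (*Cldn5* and *Cdh5*) and fibroblast markers 1 of 5 (*Dcn*). None of the 5 markers of neutrophils (summed level of 2.15 to 8.27 RPKM in CL and 2.19 to 13.7 RPKM in MCAO), neurons, oligodendrocytes or choroid plexus passed in either direction (medians of -0.03, -0.11, -0.03 and 0.34 in the average of both genotypes). At an unadjusted p under 0.05, 3 neuronal markers were lower, 1 oligodendrocyte marker was higher and 1 lower, 1 choroid plexus marker was higher and no neutrophil marker passed. With limma voom the neuronal markers *Snap25* and *Syt1* were called lower (-0.26 and -0.14 on the log2 scale) and none of the other 3 lists had a call. The neutrophil marker *Ly6g* was at 0 in 7 of 14 libraries. Their part in the levels of the members was not tested either.

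The other genes of lysosomal proteolysis were examined as 9 lists of 82 genes, of which 80 were tested. In the average of both genotypes 19 rose and 1 fell, beside the 2.52% and 0.902% of all genes, with a median log2 fold change of 0.07 against 0.78 for the members. Of the 80, 12 rose and none fell in Cort-/- mice in the limma model. Limma voom called 16 higher and 2 lower (*Ids* and *Sort1*) there, beside 938 and 356 of all genes tested. In the average limma voom called 22 higher and 4 lower, beside 1447 and 698. In Cort+/+ mice none passed in limma or limma voom. At an unadjusted p under 0.05, 24 were higher and 3 lower in Cort+/+ mice. Over all 46102 genes tested 3626 passed that threshold, 2248 of them higher. The counts depended on single libraries, as did those over all genes (792 called in Cort-/- mice, 133 to 1191 without 1 library). In Cort+/+ mice 6 passed without Cort+/+ MCAO replicate 4, among them *Cst7*, *Cd68* and *Gusb*, and none without any other library. In Cort-/- mice 1 passed without Cort-/- CL replicate 1 or 3, 5 without Cort-/- MCAO replicate 4, 6 without Cort-/- CL replicate 2 or MCAO replicate 1 or 5, and 10 to 15 without any other library. In the average the 20 became 11 to 13 without Cort-/- CL replicate 1 or 3, Cort+/+ CL replicate 3 or Cort+/+ MCAO replicate 2 or 3. The members were chosen with these results known, so this contrast is a description.

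Of the other 6 cathepsin genes tested, *Ctsa*, which encodes the protective protein of lysosomal glycosidases, was the only one that rose in the average of both genotypes (log2 fold change 0.33, limma adjusted p = 0.0284). *Ctsf* and *Ctso*, both broadly expressed cysteine cathepsins, had means of 28.8 to 29.8 and 8.22 to 8.75 RPKM over the 4 groups and log2 fold changes of -0.03 and 0.01 (adjusted p = 0.899 and 0.979). They are named here after their values were seen. *Ctsw* and *Ctse* had at most 14 reads per library (0.32 and 0.22, adjusted p = 0.601 and 0.704).

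Of the inhibitors, *Cst7*, which encodes cystatin F, an inhibitor that enters lysosomes and acts on cathepsin C, had 8, 0 and 3 reads in Cort+/+ CL and 83, 128 and 15 reads in Cort+/+ MCAO libraries. The Cort-/- libraries had 3, 17 and 9 reads in CL and 179, 75, 34, 127 and 132 reads in MCAO libraries, or 0.296 ± 0.215 RPKM (SD, n = 3) and 2.76 ± 1.20 RPKM (SD, n = 5). No MCAO library overlapped with CL in either genotype. The change averaged over genotypes was 3.06 (standard error 0.44, limma adjusted p = 0.00331), which exceeded that of any member, from a CL level near the counting limit. *Cstb*, the cytosolic stefin B, rose by 0.42 (adjusted p = 0.0155) from 22.5 and 21.2 to 28.2 and 30.5 RPKM in Cort+/+ and Cort-/- mice. *Serpina3g* was at 0.24 (adjusted p = 0.735). So *Cst7* and *Cstb* rose, while the means of the secreted inhibitor *Cst3* lay within 1.07-fold.

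Among lysosomal glycosidases, lipases and cofactors 7 of 21 rose, with the largest changes in *Gusb* (beta-glucuronidase, 1.10) and *Grn* (progranulin, 1.03, adjusted p = 0.00344 and 0.00398). In the limma model the gene of these lists that fell was *Ids*, which encodes iduronate-2-sulfatase (-0.23, standard error 0.05, adjusted p = 0.0309). It was at 99.7 and 85.1 RPKM in Cort+/+ and at 93.1 and 79.0 RPKM in Cort-/- CL and MCAO hemispheres. Of 11 lysosomal membrane proteins 5 rose, led by *Cd68* (1.83), *Cd63* (1.03) and *Laptm5* (0.91), which myeloid cells express strongly. *Cd68* went from 8.31 ± 2.69 to 27.4 ± 9.86 RPKM in Cort+/+ (SD, n = 3 each) and from 8.40 ± 2.87 (SD, n = 3) to 33.4 ± 10.1 RPKM (SD, n = 5) in Cort-/- mice.

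Of the other lysosomal peptidases *Prcp* and *Scpep1* rose (0.48 and 0.41, adjusted p = 0.00199 and 0.0201), and *Cpq* was at 0.11 (adjusted p = 0.237). The V-ATPase, the pump that acidifies the lysosome, had no gene of 17 that passed, and its median log2 fold change was 0.01 with a range of -0.20 (*Atp6v1g2*) to 0.11 (*Atp6v1g1*). *Atp6v0a1* was at -0.11. At an unadjusted p under 0.05, 2 of the 17 were higher and 3 lower, and limma voom on the recovered reads called *Atp6v1g2* and *Atp6v0a1* lower. In the machinery that sorts enzymes to the lysosome 1 of 6 genes rose, *Nagpa* (0.29, limma adjusted p = 0.0409). *Sort1* was at -0.18 and *M6pr* at 0.14 (limma adjusted p = 0.0641 and 0.0850). With limma voom *Sort1* was called lower, both in the average and in Cort-/- mice. None of the 4 MiT/TFE genes passed, with *Tfec*, *Tfeb* and *Tfe3* at 0.36, 0.18 and 0.06 (adjusted p = 0.373, 0.160 and 0.647), 1 higher at an unadjusted p under 0.05 and none called by limma voom. Among substrates of cathepsins S and C, *Cd74*, the invariant chain, rose by 1.36 (adjusted p = 0.00225), whereas *Elane* and *Gzma* had at most 9 reads in any library.

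**Figure D5:**
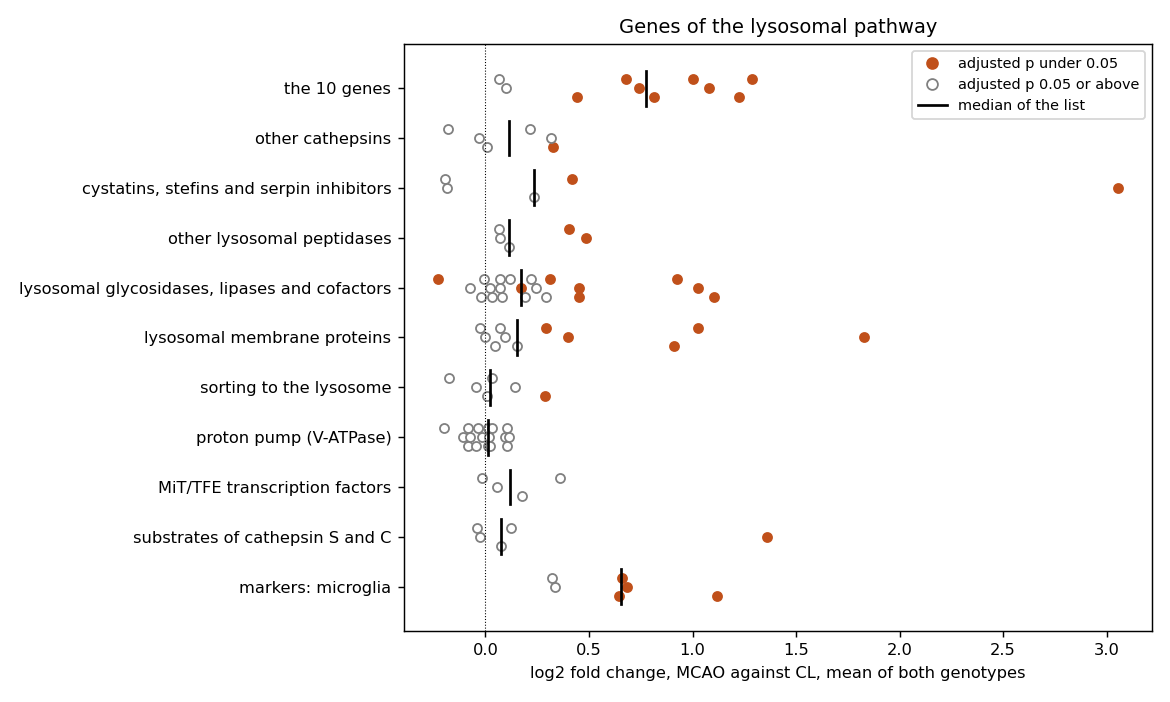
Log2 fold change from CL to MCAO averaged over genotypes (horizontal axis) for each gene of the 10 described here, of 9 pathway lists and of the microglial markers (rows), with filled points for an adjusted p under 0.05 and a black line at the median of each list. The medians are 0.78 for the 10 genes, 0.65 for the microglial markers and 0.01 for the 17 V-ATPase genes.

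Finally, genotypes were compared. In CL hemispheres none of the members passed between Cort-/- and Cort+/+ mice, with log2 differences of -0.13 (*Cst3*) to 0.12 (*Ctsz*), none at an unadjusted p under 0.05, none called by limma voom, and 0.0152% of all genes called. In MCAO hemispheres no member passed either in limma or limma voom (0.0174% of all genes called in limma). At an unadjusted p under 0.05 there were 2 members, beside 1762 of all 46102 genes tested. The Cort-/- estimate was the higher for 9 of 10 genes, beside 49.2% of all genes tested. Over the 10 genes the median difference was 0.23. Intervals of 95% ran from -0.17 to 0.60 for *Ctsd*, from -0.15 to 0.62 for *Ctss* and from -0.28 to 1.07 for *Ctsc*. Without Cort+/+ MCAO replicate 4 the estimates of *Ctsd*, *Ctsh* and *Ctsz* were -0.045, -0.0069 and -0.057. Those of *Ctsb*, *Ctss*, *Ctsc*, *Lgmn* and *Ctsl* were then 0.014, 0.016, 0.030, 0.059 and 0.075. *Ctsk* and *Cst3* were at 0.49 and -0.14 in that fit. The differences of the genes that rose thus depended on this 1 library. With all libraries *Ctsk* had the largest difference, 0.51 (standard error 0.12, unadjusted p = 0.00119, adjusted p = 0.660), with every Cort-/- MCAO library above every Cort+/+ MCAO library. *Cst3* had a difference of -0.14 (unadjusted p = 0.0299, adjusted p = 1) and every Cort-/- MCAO library was below every Cort+/+ MCAO library. How many of all genes separate the genotypes in this way was not counted, so both separations are descriptions.

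The response to MCAO itself was not shown to differ between genotypes for any member. In the interaction contrast, which subtracts the Cort+/+ from the Cort-/- response, none passed in limma or limma voom, and 0.00217% of all genes did in limma. The estimates were 0.13 for *Ctsd* (95% interval -0.45 to 0.70), 0.34 for *Ctsc* (-0.67 to 1.35), 0.40 for *Ctsh* (-0.31 to 1.10) and 0.27 for *Ctss* (-0.31 to 0.85). These intervals include 0. For *Ctsc*, *Ctsh* and *Ctss* they also include a difference as large as the Cort+/+ response itself (1.11, 0.80 and 0.60), and for *Ctsd* they do not (1.02). Without Cort+/+ MCAO replicate 4 the interaction estimates of these 4 genes were -0.13 (*Ctsd*), -0.023 (*Ctsc*), 0.12 (*Ctsh*) and 0.050 (*Ctss*). Calls made in Cort-/- and not in Cort+/+ mice are therefore not evidence of a different response, with 5 MCAO libraries in the former and 3 in the latter. *Ctsk* was the only member with an unadjusted p under 0.05 (0.60, 95% interval 0.20 to 0.99, unadjusted p = 0.00627, adjusted p = 1). Over all 46102 genes tested, 1527 had an unadjusted p under 0.05 in the interaction contrast.

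By separation of libraries within a genotype, all 10 members had every Cort-/- MCAO library above every Cort-/- CL library, against 4.85% of all genes tested. Within Cort+/+ mice the same held for *Ctsc*, *Ctsd*, *Ctsl*, *Ctsz* and *Lgmn*, against 5.73% of all genes. *Ctsb*, *Ctsh* and *Ctss* had 2 of 3 MCAO libraries above every CL library there, *Cst3* had 1, and *Ctsk* none.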

How the data were processed

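RNA-seq libraries were prepared by the authors from CL and MCAO hemispheres with a stranded mRNA kit. The deposited values are RPKM per gene, made by the authors with reanalyzerGSE (version 3.0.0) on GRCm39 and GENCODE M28 per the submitters' processing notes and the study's methods, while the gene lengths, the counter's strand setting and the handling of shared exons are not given in the sources used here. In RPKM each library has steps worth 1 read, and 100% of 495656 values above 0 gave whole reads within 0.001 reads.

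From these values log2(RPKM + 0.1) was computed for the 46102 genes above 0 in at least 2 libraries and fitted in 1 limma model (version 3.58.1, R 4.3.3) of the 4 groups with a mean-dependent prior variance. Contrasts were MCAO against CL in each genotype and averaged over them, Cort-/- against Cort+/+ in each hemisphere, and the interaction. P-values were adjusted by Benjamini-Hochberg over all genes tested, with a threshold of 0.05. Fold changes on this scale understate changes of genes near the pseudocount. The count test on the recovered reads, limma voom, called 8 members in Cort-/- mice and 1 in Cort+/+ mice, among 1294 and 57 of all genes. Scripts were tested on simulated data. The other alternatives were further pseudocounts, filters and scalings, library weights, a replicate block and leaving out each library.

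The members, the gene lists and the markers were chosen with earlier results of these data known. Named genes were all members and, in each list, the 3 with the largest absolute change averaged over genotypes, besides exceptions named as such and genes that likeness to a member selected. Protease sums and ratios, levels relative to microglial markers, overlaps of gene models and motifs were examined after values were seen. Replicates were independent biological samples per the study's methods, while the labels give replicate numbers only. Placental cathepsin genes (8) and *Stfa3* were not analysed here, and 2 genes that these rules select are not reported here. Python 3.11.15, pandas 2.3.3, scipy 1.17.1 and matplotlib 3.10.9 were used for summaries and plots.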

Additional observations from a re-analysis of the deposited data

Results flagged for a closer look

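*Ctsk* in the Cort-/- MCAO group had 1 library far from the others. Replicate 4 was at 2.77 RPKM and the other 4 libraries lay between 1.92 and 2.10 RPKM, so that its gap to the nearest library was 0.790 of the range, beyond the critical value of 0.71 for 5 samples. Of 10 such groups examined, 1 per member, chance would mark about 1 in 20.

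The estimated response of *Ctsk* to MCAO had opposite signs in the genotypes, but was not shown to differ between them. All 3 Cort+/+ MCAO libraries were below the Cort+/+ CL mean and all 5 Cort-/- MCAO libraries above the Cort-/- CL mean, with a difference of responses of 0.60 on the log2 scale (standard error 0.18, limma unadjusted p = 0.00627). After adjustment over all genes the difference of responses did not pass (adjusted p = 1.000). In Cort+/+ mice the MCAO and CL ranges overlapped, and MCAO replicate 3 was only -0.07 from the CL mean. How many of all genes have such opposite signs was not counted.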

How the results depend on the processing

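In the average of both genotypes the 8 members called kept their calls in all 14 fits that left out 1 library and in every other alternative with this contrast except the fixed replicate block, which called 2, *Ctsd* and *Ctsz*. That block grouped libraries by replicate number across both genotypes. It therefore joined libraries of different mice and is not a pairing of hemispheres. In Cort-/- mice the count ranged from 0 to 8 over the fits without 1 library and was 0 with the fixed replicate block (lowest adjusted p = 0.101). In Cort+/+ mice it ranged from 0 to 2 without 1 library and was 1 with limma voom. Of the 80 other genes of lysosomal proteolysis, 12 were called in Cort-/- mice (1 to 15 without 1 library, 0 with the fixed replicate block, 9 to 18 otherwise), none in Cort+/+ mice (0 to 6 without 1 library, 0 otherwise) and 20 in the average (11 to 23 without 1 library, 9 with the fixed replicate block, 20 to 26 otherwise). Replicate numbers do not pair the samples by the labels, and the correlation of deviations between same-numbered CL and MCAO libraries was 0.316 and -0.141 in Cort+/+ and -0.0645, -0.239 and 0.0271 in Cort-/- mice. A random block on genotype and number changed no call of the members. Counts over all genes were 5 (3 to 160 without 1 library, 1 to 57 otherwise) in Cort+/+ mice, 792 (133 to 1191 without 1 library, 0 to 1294 otherwise) in Cort-/- mice and 1579 (941 to 1913 without 1 library, 238 to 2180 otherwise) averaged over genotypes. For the genotypes they were 7 (7 to 27 without 1 library, 2 to 15 otherwise) in CL, 8 (7 to 40 without 1 library, 4 to 12 otherwise) in MCAO and 1 (1 to 16 without 1 library, 0 to 1 otherwise) for the interaction. Reversed signs concerned values that did not pass. Without 1 library, the interaction ranged from -0.059 to 0.057 for *Cst3*, -0.023 to 0.64 for *Ctsc*, -0.13 to 0.27 for *Ctsd* and -0.18 to 0.33 for *Ctsz*. The genotype difference in MCAO ranged from -0.045 to 0.36 for *Ctsd*, -0.0069 to 0.44 for *Ctsh* and -0.057 to 0.45 for *Ctsz*. The average response ranged from -0.00025 to 0.23 for *Elane* and from -0.073 to 0.29 for *Gzma*. The average response of *Ctsk* was -0.0090 after quantile normalization, and the interaction of *Cst3* 0.0026 with median-ratio scaling. The cause was not tested. With 3 to 5 libraries a group, intervals of the interaction remain wide.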

Other observations

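Some granule protease genes and a stefin gene were near the counting limit in every library. The granule protease gene *Prtn3*, named after its values were seen, was not, with 25 to 51 reads per library. *Ctsg*, which encodes the neutrophil protease cathepsin G, had 0 to 1 reads per library, *Elane* 0 to 2 and *Stfa1*, whose product inhibits cysteine cathepsins, 0 to 2, so differences between hemispheres were not detectable at this depth. The lymphocyte genes *Ctsw* and *Gzma* had 1 to 12 and 0 to 9 reads. *Spi1* was at 1.33 and 2.87 RPKM in Cort+/+ CL and MCAO and at 1.29 and 3.79 RPKM in Cort-/- CL and MCAO hemispheres, and it rose in the average of both genotypes (log2 fold change 1.23, standard error 0.21, limma adjusted p = 0.00760).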
